A study of Mus musculus with 6 samples.

Results

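The posterior HoxA and HoxD genes comprise 10 genes, Hoxa9, Hoxa10, Hoxa11 and Hoxa13 of the HoxA cluster and Hoxd8 to Hoxd13 of the HoxD cluster, chosen by symbol from the 49315 genes of the count table, in which all 10 were found. Their RNA was measured by sequencing in 6 libraries of cells from the tail-tip skin of wild-type mice. Fibroblasts at day 0 (2 libraries) carried negative-control lentiviral vectors, early cells at day 7 (2 libraries, still labelled as fibroblasts) carried CRISPR activation (CRISPRa) vectors, and late cells at day 22 (2 libraries), described as induced cardiac progenitors, carried CRISPRa vectors and were isolated as colonies. CRISPRa of the SAM type directs activators to a promoter with a Cas9 that does not cut, and the labels do not name the genes targeted. The early and late columns of the table were assigned by their names, which are not exact sample titles, and early and late values would change places if that reading were wrong. Whether replicate libraries came from different animals or cultures is not stated, and the spread behind each p-value may be technical. The number of animals or colonies per library is likewise not stated.

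Hox genes encode homeodomain transcription factors that mark position along the body axis, and the genes of a cluster lie in the order in which they act, from 3′ genes of the head and neck to 5′ genes of the tail, limb ends and genitals. Genes at the 5′ ends of HoxA and HoxD pattern the limbs, the urogenital tract and the hindgut. Fibroblasts of adult skin are known to keep a Hox pattern that marks the body site they came from. In GRCm38 with the GENCODE M21 annotation, the HoxA members lie on the minus strand of chromosome 6 and the HoxD members on the plus strand of chromosome 2, all protein coding.

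Promoter sequences of 4 members are shown because they set paralogs of the same group side by side that stood on opposite sides of the fibroblast level in the data that follow. Hoxa13 and Hoxd13 are the 5′-most genes of their clusters, and Hoxa10 and Hoxd10 had the highest mean levels per length among the posterior members of their clusters in late cells. Each line gives the 250 bases before the RefSeq start site (GRCm38.p6), 5′ to 3′ on the strand of the gene, with CpG dinucleotides in capitals. The windows are chr6:52260881-52261130 (minus strand) for Hoxa13, chr2:74667975-74668224 (plus strand) for Hoxd13, chr6:52240855-52241104 (minus strand) for Hoxa10 and chr2:74691641-74691890 (plus strand) for Hoxd10.
Hoxa13: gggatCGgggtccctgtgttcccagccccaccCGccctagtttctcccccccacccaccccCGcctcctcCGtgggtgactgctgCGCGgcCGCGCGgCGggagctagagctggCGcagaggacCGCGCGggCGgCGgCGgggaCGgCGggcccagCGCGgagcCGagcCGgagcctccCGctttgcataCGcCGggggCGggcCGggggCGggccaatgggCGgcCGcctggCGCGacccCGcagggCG
Hoxd13: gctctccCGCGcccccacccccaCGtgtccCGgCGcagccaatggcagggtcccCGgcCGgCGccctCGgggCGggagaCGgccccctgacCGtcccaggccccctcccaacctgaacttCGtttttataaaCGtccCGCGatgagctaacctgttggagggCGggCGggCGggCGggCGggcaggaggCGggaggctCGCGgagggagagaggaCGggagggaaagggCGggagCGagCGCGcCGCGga
Hoxa10: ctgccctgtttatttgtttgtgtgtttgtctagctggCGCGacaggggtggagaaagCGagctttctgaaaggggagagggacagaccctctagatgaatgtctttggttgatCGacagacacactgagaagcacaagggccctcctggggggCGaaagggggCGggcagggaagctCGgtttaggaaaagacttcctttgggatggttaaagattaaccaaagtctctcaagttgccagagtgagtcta
Hoxd10: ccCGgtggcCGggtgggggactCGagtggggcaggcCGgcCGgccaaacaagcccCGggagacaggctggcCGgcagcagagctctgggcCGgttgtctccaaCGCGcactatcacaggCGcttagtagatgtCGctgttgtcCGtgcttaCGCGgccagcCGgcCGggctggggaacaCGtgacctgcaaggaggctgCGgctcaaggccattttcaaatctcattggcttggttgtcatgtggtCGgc

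The group 13 promoters shared a high CpG content, with 35 CpG in the Hoxa13 window and 31 in that of Hoxd13, against a median of 6 over the 27025 RefSeq promoters of the same length (quartiles 2 and 16). The Hoxa10 window held 7 and that of Hoxd10 20, and over all 10 members the number ranged from 2 for Hoxd11 to 35, with a median of 11.5. On both strands and with overlapping matches counted, the GC box core GGGCGG was found 5 times before Hoxa13 and 7 times before Hoxd13, in 5 of 10 members and in 33.0% of all promoters. TATAAA was present in the window of Hoxd13 alone among the members and in 13% of all promoters. CCAAT was present in 5 of 10 members and in 34.5% of all promoters, and CCATAAA, a motif of the CDX and posterior Hox type, in 0 members and in 2.46% of all promoters. These are matches of letters only, and methylation and binding were not measured.

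Total counts per library ranged from 20172874 to 40122999, and a floor of 3 counts corresponded to between 0.0841 and 0.142 CPM (counts divided by library size after TMM scaling). Markers of other cells differed between libraries. Summed over 10 cardiac muscle markers, late replicate 2 stood at 49060 CPM, against 17.7 to 127 CPM in the other 5 libraries. Endothelial markers (6 genes) summed to 647 CPM in late replicate 2 and 1.73 to 23.1 CPM in the other 5. Macrophage markers (6 genes) summed to 235 and 1015 CPM in fibroblasts, 4.22 and 10.7 CPM in early cells and 4.04 and 98.6 CPM in late cells, and keratinocyte markers (6 genes) to 3.73 to 11.2 CPM over all 6 libraries, with Krt1 at 0 in each. The 10 fibroblast markers summed to 13120 and 14590 CPM in fibroblasts, 5982 and 15220 CPM in early cells and 5418 and 4988 CPM in late cells. Among them early replicate 1 held Lum at 0 and Col3a1 at 16.9 CPM, where early replicate 2 held them at 102 and 3881 CPM. With edgeR, 1 fibroblast marker, S100a4, fell in early and in late cells over fibroblasts (adjusted p = 0.0415 and 0.0379). Of the other 4 types, 0 markers passed in any comparison. Among all genes tested, edgeR called 1.53% in early and 1.42% in late cells over fibroblasts, and 0.0% in late over early cells. At an unadjusted p under 0.05, late cells over fibroblasts had 10 cardiac, 3 endothelial and 2 keratinocyte markers higher and 1 macrophage marker lower. DESeq2 called 10, 3 and 2 higher and 2 lower in the same order. Over all genes tested the shares were 32.5% and 28.1%. Both late libraries stood above both fibroblast libraries for 2 of the 10 cardiac markers, against 35.7% of all genes tested. In late replicate 1 the cardiac markers summed to 78.3 CPM, between the 2 fibroblast libraries (17.7 and 127 CPM). For early cells over fibroblasts, 0 cardiac markers were at an unadjusted p under 0.05, 1 endothelial and 6 macrophage markers were lower and 2 keratinocyte markers higher. DESeq2 called 0, 2, 6 and 2 in the same order and directions, and the shares of all genes were 29.8% and 25.2%. The part of these differences in the Hox results was not tested, and fewer cells of a type cannot be told apart from less RNA per cell.

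The comparison of early cells with fibroblasts asks how the posterior Hox pattern of tail skin stood at day 7. All 4 HoxA members were lower in both early libraries than in both fibroblast libraries, by 4.77-fold for Hoxa9 to 74.7-fold for Hoxa13, and the fitted difference was larger for each gene nearer the 5′ end. Hoxa13 passed the test and fell. In HoxD, Hoxd8 was lower, while Hoxd10, Hoxd11 and Hoxd13 were higher in both early libraries than in both fibroblast libraries, without passing. Over the 9 members that passed the expression filter, 1 fell and 0 rose (edgeR quasi-likelihood test, adjusted p under 0.05 over 16688 genes), where 1.53% of all genes tested were called, 0.833% lower and 0.695% higher. At an unadjusted p under 0.05 there were 7 members, against 29.8% of all genes tested, and DESeq2 called 5 (4 lower, 1 higher), against 25.2%. Non-overlapping groups were seen for 5 members with lower and 3 with higher values, against 34.4% and 32.3% of all genes tested.

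**Figure D1:**
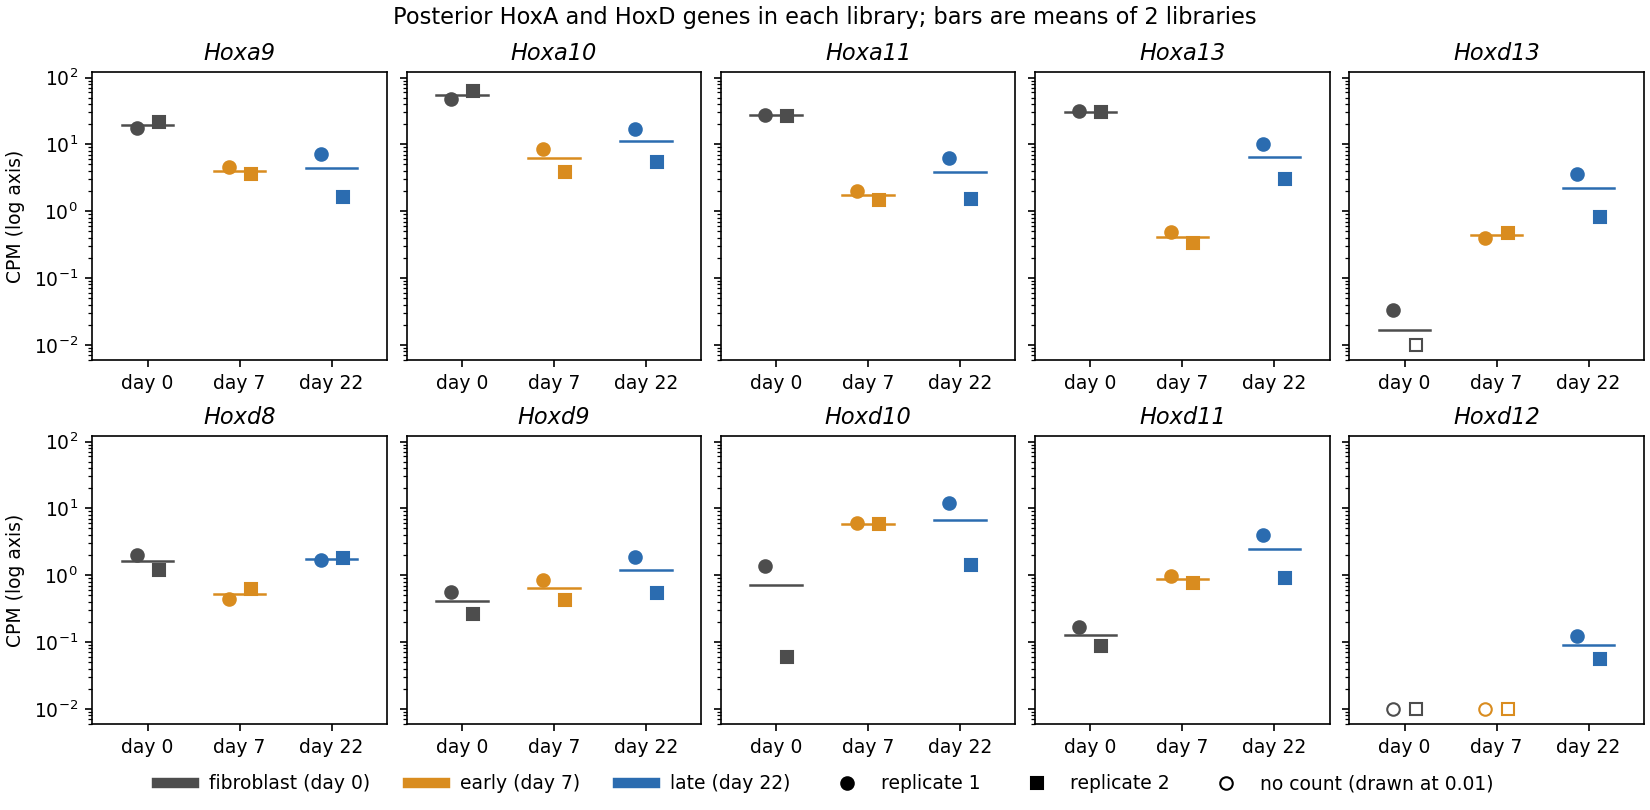
CPM of each of the 10 members (log axis) in the 2 libraries of each day, with replicate 1 as a circle, replicate 2 as a square, the mean as a line and libraries without a count as open marks at 0.01. The HoxA members were highest at day 0, Hoxa13 was lowest at day 7 (0.489 and 0.331 CPM), and Hoxd10, Hoxd11 and Hoxd13 were lowest at day 0.

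Hoxa13, needed for digits, genital tubercle and hindgut (ENSMUSG00000038203), spans bases 52257694 to 52260880 of chromosome 6. It stood at 31.1 and 30.9 CPM in fibroblasts, 0.489 and 0.331 CPM in early cells and 10.1 and 3.0 CPM in late cells. In counts this was 929 and 1051, 11 and 7, and 242 and 107. The 3 groups did not overlap, and both late libraries stood between the early and the fibroblast level. Set against fibroblasts, early cells had a log2 fold change of -6.22 with an SE of 0.78 (edgeR adjusted p = 0.0412), and the errors after ± in what follows are SEs as well. The direction held under all 11 alternatives, with adjusted p between 4.78e-14 and 0.197. Of the 6 fits that left out 1 library, the call was lost without fibroblast replicate 1 (edgeR adjusted p = 0.194), fibroblast replicate 2 (0.197), early replicate 1 (0.119) or early replicate 2 (0.0728), each of which leaves 1 library in a group that is then assumed to vary like the others. Without either fibroblast library no gene of the 16688 passed with edgeR, while 2834 (without replicate 1) and 2400 (without replicate 2) were at an unadjusted p under 0.05.

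Hoxa11, a gene of the forearm, lower leg, uterus and kidney (ENSMUSG00000038210, bases 52242106 to 52245810 of chromosome 6), stood at 27.95 and 27.02 CPM in fibroblasts, 2.001 and 1.465 CPM in early cells and 6.28 and 1.51 CPM in late cells. Both later groups lay below fibroblasts, and the late libraries overlapped the early ones. The log2 fold change of early cells was -3.98 ± 0.77 (edgeR adjusted p = 0.0645).

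Hoxa10, a gene of the upper leg, the lumbar vertebrae and the uterus (ENSMUSG00000000938, bases 52231197 to 52240854 of chromosome 6), stood at 47.3 and 63.4 CPM in fibroblasts, 8.58 and 3.92 CPM in early cells and 17.0 and 5.41 CPM in late cells. Its log2 fold change in early cells was -3.15 ± 0.70 (edgeR adjusted p = 0.0733). Hoxa9, which also acts in blood progenitors (ENSMUSG00000038227, bases 52223100 to 52231089 of chromosome 6), stood at 17.3 and 21.5 CPM in fibroblasts, 4.58 and 3.54 CPM in early cells and 7.24 and 1.63 CPM in late cells. Its value of -2.25 ± 0.76 was the smallest fitted difference among the 4 (edgeR adjusted p = 0.127). For both genes fibroblasts stood apart and the late libraries lay on either side of an early one.

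Hoxd8 is the 3′-most HoxD member and a gene of the trunk (ENSMUSG00000027102, chromosome 2, 74704615 to 74707933). It was at 2.011 and 1.204 CPM in fibroblasts, 0.445 and 0.614 CPM in early cells and 1.66 and 1.79 CPM in late cells. Early cells stood below both other groups (log2 fold change -1.59 ± 0.57 over fibroblasts, edgeR adjusted p = 0.139), and the late values overlapped those of fibroblasts.

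Hoxd9, which acts with Hoxa9 in the upper limb segment (ENSMUSG00000043342, bases 74697727 to 74700208 of chromosome 2), stood at 0.570 and 0.264 CPM in fibroblasts, 0.845 and 0.425 CPM in early cells and 1.87 and 0.533 CPM in late cells. Each group overlapped the next, and its early difference was 0.61 ± 0.87 on the log2 scale (edgeR adjusted p = 0.679).

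Hoxd10, a gene of hindlimb motor neurons and limb skeleton (ENSMUSG00000050368, bases 74691924 to 74695105 of chromosome 2), stood at 1.37 and 0.0587 CPM in fibroblasts, 6.05 and 5.76 CPM in early cells and 11.9 and 1.43 CPM in late cells. The early libraries lay close together, but fibroblast counts were 41 and 2 and late counts 287 and 51. The log2 fold change of early cells was 3.04 ± 1.58 (edgeR adjusted p = 0.258). It was 6.55 without fibroblast replicate 1 and 2.10 without fibroblast replicate 2.

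Hoxd11, a partner of Hoxa11 in limb and kidney (ENSMUSG00000042499, bases 74679557 to 74687016 of chromosome 2), stood at 0.168 and 0.0881 CPM in fibroblasts, 0.978 and 0.756 CPM in early cells and 3.95 and 0.897 CPM in late cells. Both fibroblast libraries lay below all 4 others (early log2 fold change 2.73 ± 0.95, edgeR adjusted p = 0.135). Exons of a predicted gene, Gm28309, share 455 bases with Hoxd11 and 104 bases with Hoxd10 on the same strand, so the counts of both members are uncertain to the extent that reads there were split.

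Hoxd13, a digit gene altered in human synpolydactyly (ENSMUSG00000001819, bases 74668310 to 74671599 of chromosome 2), stood at 0.0335 and 0 CPM in fibroblasts, 0.400 and 0.472 CPM in early cells and 3.66 and 0.813 CPM in late cells. In counts this was 1 and 0, 9 and 10, and 88 and 29. The groups did not overlap and stood in order of day. The early level was 27.8 times that of fibroblasts, with an exact 95% interval from counting error of 4.42 to 1155, and it rests on 1 fibroblast count. Its edgeR adjusted p was 0.108. Hoxd12, its neighbour of similar limb roles (ENSMUSG00000001823, chromosome 2, 74675013 to 74677705), was below the filter, with 0 counts in fibroblasts and early cells and 3 and 2 counts in the late libraries. It was not detectable above the floor in any library.

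The comparison of late cells with fibroblasts asks the same of the isolated colonies at day 22. The HoxA members were again lower in both late libraries than in both fibroblast libraries, and Hoxd10, Hoxd11 and Hoxd13 again higher, while Hoxd8 had come to overlap the fibroblast level. Of the 9 members tested, 0 passed (edgeR), against 1.42% of all genes (0.779% lower and 0.641% higher), with 6 members at an unadjusted p under 0.05 and 6 called by DESeq2 (4 lower, 2 higher), against 32.5% and 28.1% of all genes tested. Groups that did not overlap were lower for 4 members and higher for 3, against 32.9% and 35.7% of all genes tested. This comparison shares its fibroblast libraries with the one of early cells, so the 2 sets of values are not independent.

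The late log2 fold changes over fibroblasts were -2.25 ± 0.63 for Hoxa13, -2.82 ± 0.73 for Hoxa11, -2.31 ± 0.68 for Hoxa10 and -2.13 ± 0.75 for Hoxa9 (edgeR adjusted p from 0.0818 to 0.129). Without late replicate 1 they were -3.43 for Hoxa13, -4.24 for Hoxa11, -3.41 for Hoxa10 and -3.63 for Hoxa9, and Hoxa13, Hoxa11 and Hoxa9 then passed (edgeR adjusted p = 0.0434, 0.0388 and 0.0460). Without late replicate 2 they were -1.62, -2.13, -1.71 and -1.42 in the same order. In HoxD the late values were 0.11 ± 0.54 for Hoxd8, 1.51 ± 0.86 for Hoxd9, 3.22 ± 1.59 for Hoxd10 and 4.20 ± 0.98 for Hoxd11 (edgeR adjusted p from 0.0740 to 0.901). Without late replicate 1, Hoxd9 stood at 0.30, Hoxd10 at 0.95 and Hoxd11 at 2.73, and without fibroblast replicate 1, Hoxd9 stood at 2.16 and Hoxd10 at 6.72. Hoxd13 was 125 times higher than its 1 fibroblast count gave, with an exact 95% interval from counting error of 22.04 to 4987 (edgeR adjusted p = 0.0645). The direction for Hoxd8 turned without fibroblast replicate 2, to -0.22 (edgeR adjusted p = 0.902).

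**Figure D2:**
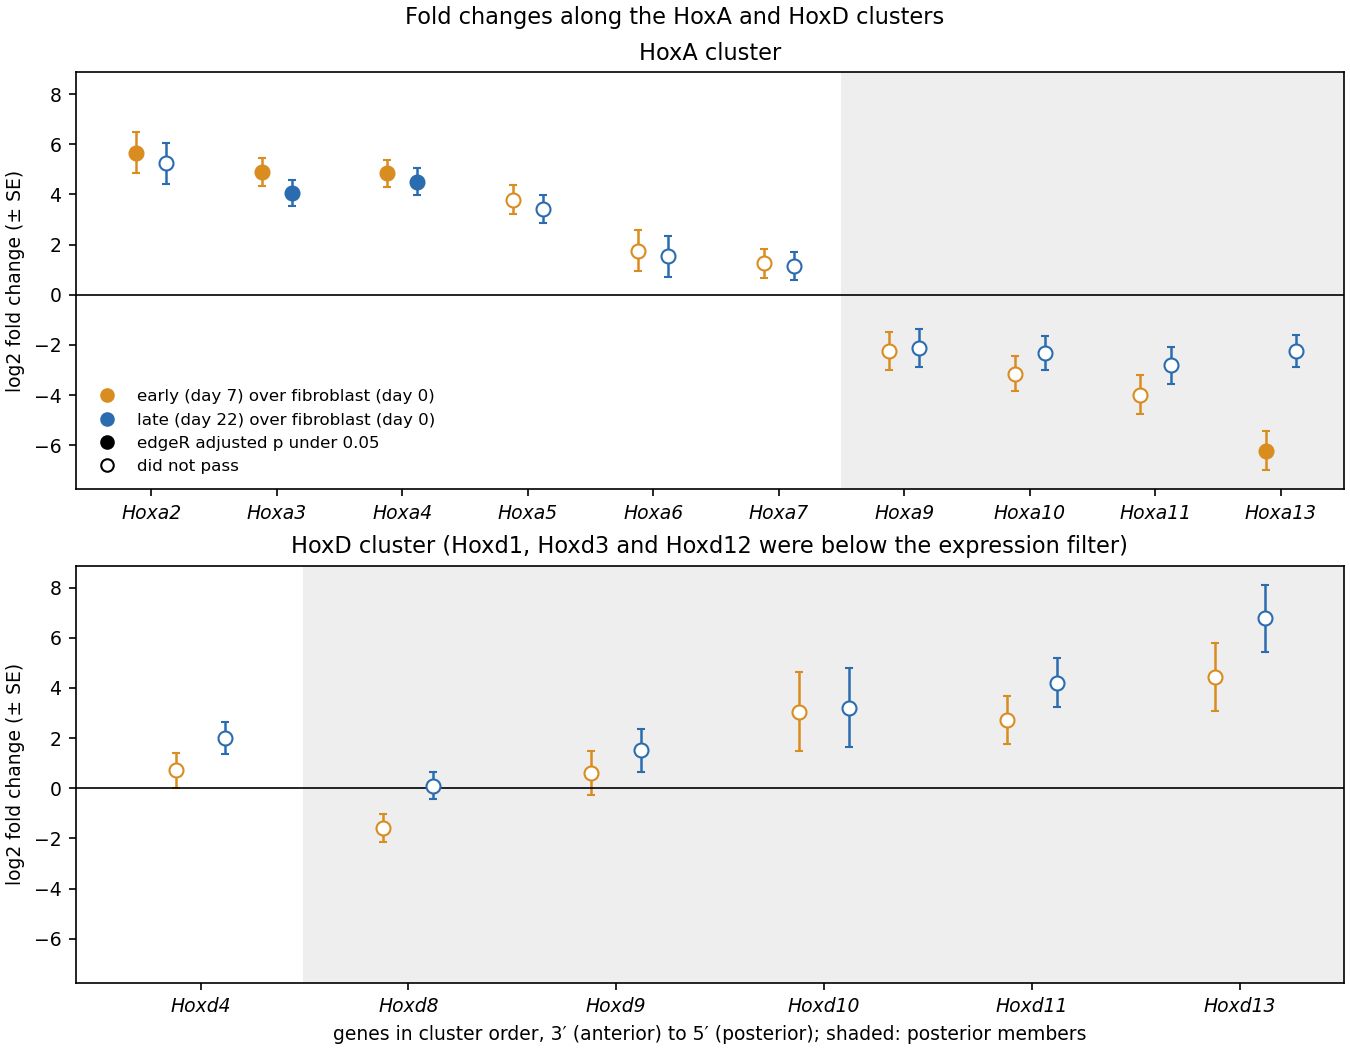
Log2 fold changes with standard errors of tested genes of HoxA (top) and HoxD (bottom) in cluster order, for early cells over fibroblasts and late cells over fibroblasts, with filled marks for an edgeR adjusted p under 0.05 and the posterior members shaded. In HoxA the values lie above 0 from Hoxa2 to Hoxa7 and below 0 from Hoxa9 to Hoxa13. In HoxD they reach 4.44 and 6.78 at Hoxd13.

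The comparison of late with early cells asks what differed between day 22 and day 7. The fitted values of all 9 tested members were higher in late cells, and Hoxa13, Hoxd8 and Hoxd13 had both late libraries above both early ones, against 16.1% of all genes tested with higher, non-overlapping values. With edgeR 0 members passed, as did 0.0% of all genes tested (1709 at an unadjusted p under 0.05). At an unadjusted p under 0.05 there were 2 members, and DESeq2 called 1, against 10.2% and 5.57% of all genes tested. Hoxa13 was higher in late cells by 15.7-fold (log2 fold change 3.97 ± 0.71, edgeR adjusted p = 0.336, between 2.98e-05 and 0.638 over the alternatives). Hoxd8 was higher by 1.70 ± 0.57 (edgeR adjusted p = 0.434) and Hoxd13 by 2.34 ± 0.98 (0.509) on the log2 scale. These 3 kept their direction in all 11 alternatives, but without late replicate 1 Hoxa13 stood at 2.77 (edgeR adjusted p = 0.0577), Hoxd8 at 1.67 and Hoxd13 at 0.81 on the log2 scale. The other 6 turned to lower values without late replicate 1, with log2 fold changes of -1.41 for Hoxa9, -0.30 for Hoxa10, -0.28 for Hoxa11, -0.34 for Hoxd9, -2.13 for Hoxd10 and -0.04 for Hoxd11. Late replicate 1 held more of every member than late replicate 2 except Hoxd8, and late replicate 2 is the library with the high cardiac and endothelial marker levels given above.

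Within HoxA the balance between the 5′ and 3′ genes differed by group. Of the counts of the 10 genes from Hoxa2 to Hoxa13, called HoxA counts here, Hoxa9 to Hoxa13 made up 88.5% and 94.1% in fibroblasts, 11.25% and 6.42% in early cells and 23.7% and 16.1% in late cells. The 95% Wilson intervals, which cover counting error only, were 87.5% to 89.5% and 93.4% to 94.7% in fibroblasts, 10.2% to 12.4% and 5.60% to 7.34% in early cells, and 22.4% to 25.01% and 14.75% to 17.6% in late cells. The groups did not overlap. No test was run on the shares, since an exact permutation test of 2 libraries against 2 cannot go below a two-sided p of 0.333. Summed over these 10 genes, CPM was 139.8 and 151.8 in fibroblasts, 139.1 and 144.3 in early cells and 171.3 and 71.63 in late cells. The summed level of early cells overlapped that of fibroblasts, while its posterior part was 15.7 and 9.26 CPM, against 124 and 143 CPM in fibroblasts.

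**Figure D3:**
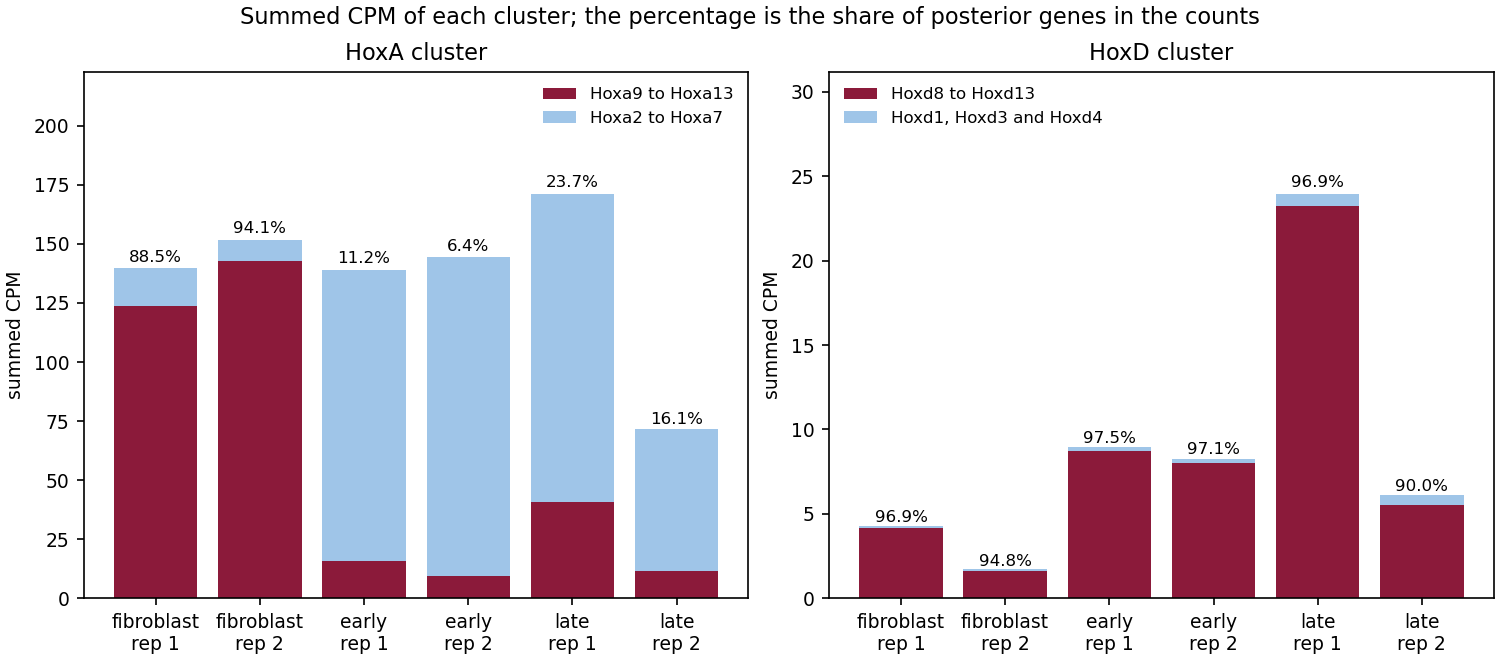
Summed CPM of HoxA (Hoxa2 to Hoxa13) and HoxD genes in each library, split into posterior members (dark) and the other genes of the cluster (light), with the percentage of cluster counts from posterior members above each bar. Posterior genes hold 88.5% and 94.1% of HoxA counts at day 0 and at most 23.7% in the other 4 libraries, and at least 89.95% of HoxD counts in all 6.

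In HoxD the posterior genes held nearly all the counts. Hoxd8 to Hoxd13 held 96.9% and 94.8% of HoxD counts in fibroblasts, 97.5% and 97.1% in early cells and 96.9% and 89.95% in late cells, and the ranges of fibroblasts and late cells overlapped. Their summed level was 4.16 and 1.62 CPM in fibroblasts, 8.72 and 8.03 CPM in early cells and 23.2 and 5.52 CPM in late cells. Of the 3′ HoxD genes, Hoxd1 and Hoxd3 had at most 6 counts in any library, and Hoxd4, whose exons overlap those of Hoxd3, had 3 to 20. Exons of a predicted gene, Gm28230, share 2225 bases with Hoxd3 and 1154 bases with Hoxd4 on the same strand. The counts of Hoxd3 and Hoxd4, and so the posterior shares of HoxD, are uncertain to the extent that reads there were split or dropped.

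The 3′ HoxA genes, which pattern the hindbrain, neck and thorax, stood on the other side of the fibroblast level. All 7 tested genes of a list of 9 other HoxA and HoxD genes were higher in both early libraries and in both late libraries than in fibroblasts, where 32.3% (early) and 35.7% (late) of all genes tested were. Hoxa2, Hoxa3 and Hoxa4 passed in early cells (0 fell), and Hoxa3 and Hoxa4 in late cells (0 fell), against 0.695% and 0.641% of all genes tested called higher. The median log2 fold change of Hoxa2 to Hoxa7 was 4.32 in early and 3.74 in late cells, that of the 4 HoxA members -3.56 and -2.28, and that of all genes 0.00 and 0.11. The fitted direction changed between the neighbours Hoxa7 and Hoxa9, neither of which passed. Hoxa7 was at 19.7 and 10.9 CPM in early cells against 8.72 and 4.14 CPM in fibroblasts, and Hoxa9 at the values above. For Hoxa7 the edgeR adjusted p was 0.21 in early and 0.221 in late cells over fibroblasts. Its exons share 586 bases with the antisense gene Hoxaas3, and the strand setting of the counting is not given. The ratio of Hoxa9 to Hoxa7 counts was 1.98 and 5.19 in fibroblasts, 0.233 and 0.325 in early cells and 0.404 and 0.157 in late cells. Hoxa13 over Hoxa10 was at 0.658 and 0.487 in fibroblasts, 0.0570 and 0.0843 in early cells and 0.593 and 0.554 in late cells. Late cells thus had a Hoxa13 to Hoxa10 ratio within the fibroblast range at lower levels of both genes.

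Levels can be compared between members only per length, as CPM per kilobase of exon. In fibroblasts the order was Hoxa10 (mean of 2 libraries 16.9), Hoxa13 (12.5), Hoxa11 (12.02), Hoxa9 (3.48), Hoxd8 (0.586), Hoxd10 (0.395), Hoxd9 (0.195), Hoxd11 (0.0304), Hoxd13 (0.00675) and Hoxd12 (0). Hoxa10 and Hoxa9 stood apart from their neighbours in both libraries, and Hoxa13 lay above Hoxa11 by less than 1 CPM per kilobase in each. In early cells Hoxd10 led in both libraries (mean 3.25 CPM per kilobase), above Hoxa10 (1.91), Hoxa11 (0.758) and Hoxa9 (0.728), of which Hoxa11 and Hoxa9 overlapped. Hoxa13 was ninth there (0.166), and its values overlapped those of Hoxd13, Hoxd8 and Hoxd11. In late cells Hoxd10 (3.68), Hoxa10 (3.42) and Hoxa13 (2.64) overlapped each other, and each was higher in replicate 1 than in replicate 2, Hoxd10 with 6.58 and 0.787 CPM per kilobase.

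Of the noncoding transcripts of the posterior HoxA region, Hoxa11os was lower in early and late cells than in fibroblasts, as was Hoxa11. Hoxa11os, the antisense transcript of Hoxa11 (chromosome 6, 52244393 to 52249799), stood at 32.7 and 33.9 CPM in fibroblasts, 0.978 and 0.425 CPM in early cells and 2.87 and 0.673 CPM in late cells (early log2 fold change -5.56 ± 0.91, edgeR adjusted p = 0.0556). Its counts were 1.17 and 1.25 times those of Hoxa11 in fibroblasts, 0.489 and 0.290 times in early cells and 0.457 and 0.444 times in late cells. Exons of the 2 genes overlap on opposite strands over 800 bases, 35.0% of the exon bases of Hoxa11, and the strand setting of the counting is not given in the sources used here, so reads of the overlap cannot be told apart. Hottip, a long noncoding RNA 5′ of Hoxa13 that is known to maintain 5′ HoxA activity, had 6 and 4 counts in fibroblasts, 0 in both early libraries and 5 and 1 counts in late cells, near the floor. A list of noncoding and antisense genes of both clusters held 18 symbols, of which 11 were found and 6, all in HoxA, were tested (1 of them, 5730596B20Rik, is annotated as protein coding). Of these 6, 0 passed in early or late cells over fibroblasts, where edgeR called 1.53% and 1.42% of all genes tested. At an unadjusted p under 0.05 there were 5 and 4 of the 6, and DESeq2 called 4 in each. Over all genes tested, 29.8% (early) and 32.5% (late) were at an unadjusted p under 0.05, and DESeq2 called 25.2% and 28.1%. Of the 6, Hoxa11os was lower than fibroblasts in both comparisons and the fitted values of the other 5 were higher. These 5 lie among the 3′ HoxA genes. They include Hoxaas2, at 6.18 and 14.6 CPM in early cells against 0.168 and 0.294 CPM in fibroblasts. Exons of Hoxaas2 share 503 bases with Hoxa3 on the opposite strand. Those of Hoxaas3 share 297 bases with Hoxa3 and 586 with Hoxa7, and those of 5730596B20Rik share 292 with Hoxa3, also on opposite strands. Reads of these overlaps likewise cannot be told apart.

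**Figure D4:**
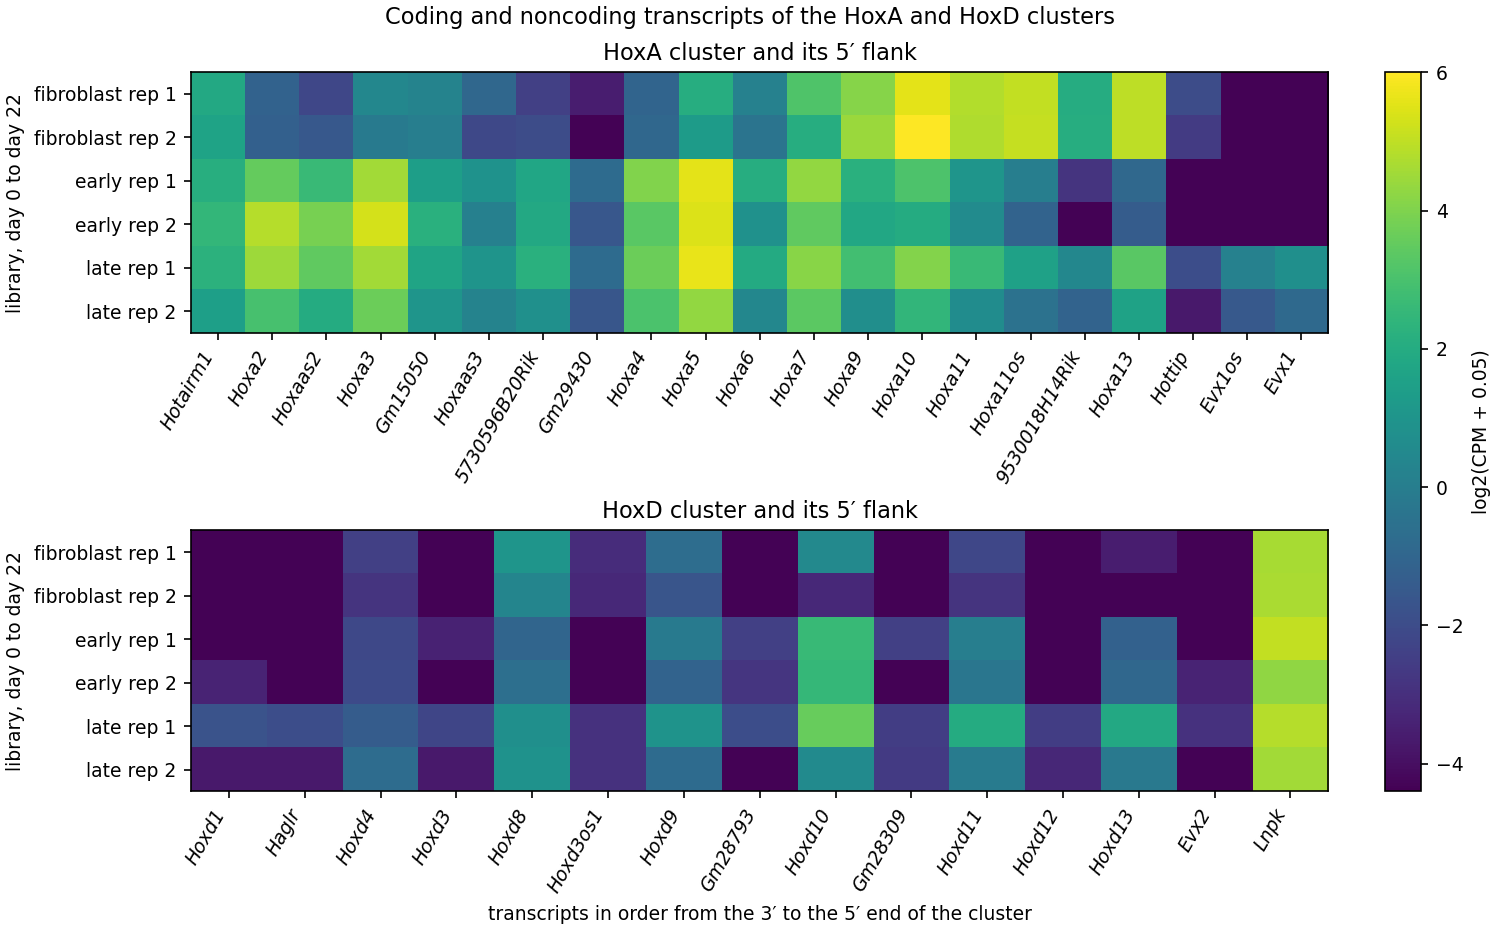
Levels of coding and noncoding transcripts in each library as log2(CPM + 0.05), in order from the 3′ to the 5′ end of HoxA (top) and HoxD (bottom), with libraries running from day 0 to day 22 down the page. Hoxd4 and Hoxd3, whose annotated spans overlap, are an exception, as Hoxd4 is drawn on the 3′ side of Hoxd3. High values shift from the 5′ part of HoxA in fibroblasts to the 3′ part in early and late cells, and Evx1 and Evx1os have counts in the late libraries alone.

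Beyond the 5′ end of HoxA lies Evx1, an even-skipped homeobox gene of the tail bud and spinal cord. Evx1 had 40 and 18 counts in the late libraries and 0 in the other 4, which makes it at least 20.7-fold higher in late cells than in fibroblasts and at least 14.1-fold higher than in early cells, computed with 3 counts over the lower group (edgeR adjusted p = 0.0844 and 0.397). Its antisense neighbour Evx1os, chosen after its values were seen, had 26 and 11 counts in late cells and 0 in the other 4. Evx2, at the 5′ end of HoxD, had at most 2 counts. Lnpk, the next gene beyond Evx2, was at 25.1 and 25.7 CPM in fibroblasts, 33.0 and 19.2 CPM in early cells and 28.5 and 23.8 CPM in late cells. Genes flanking both clusters were read from a list of 16 symbols, of which 15 were found and 14 tested. Of the 14, 0 passed in early or late cells over fibroblasts, where edgeR called 1.53% and 1.42% of all genes tested. At an unadjusted p under 0.05 there were 5 and 7 of the 14, and DESeq2 called 4 and 6. Over all genes tested, 29.8% (early) and 32.5% (late) were at an unadjusted p under 0.05, and DESeq2 called 25.2% and 28.1%. The median log2 fold change of the 14 flanking genes was -0.06 in early and 0.26 in late cells.

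Posterior genes of the other clusters and genes of limb and tail position were read from a list of 17, all tested. In early cells 4 fell, namely Hoxb13, Hoxc12, Hoxc13 and Shox2, and 1 rose, Tbx2, a T-box repressor (edgeR). In late cells 3 fell, namely Hoxb13, Hoxc12 and Shox2, and Tbx2 rose. Of all genes tested, edgeR called 0.833% lower and 0.695% higher in early cells, and 0.779% and 0.641% in late cells. DESeq2 called 8 of the list lower and 4 higher in early cells, and 9 lower and 4 higher in late cells. Over all genes tested it called 25.2% and 28.1% in either direction. The median log2 fold change of the list was -1.54 in early and -1.83 in late cells. Hoxb13, the HoxB gene of the same group as Hoxa13, was at 0.0445 and 0.0945 CPM in early cells against 66.2 and 79.0 CPM in fibroblasts. In late cells it was at 0.458 and 0.196 CPM. Shox2, a homeobox gene of the proximal limb, was at 10.3 and 4.82 CPM in early cells against 97.0 and 80.8 CPM in fibroblasts (log2 fold change -3.55, edgeR adjusted p = 0.0408).

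Genes that respond to Hoxa13, Hoxd13 or Hoxa11 in mouse limbs, gut or kidney were read from a list of 20, of which 17 were tested. In early cells 4 fell (Bmp7, Itga8, Igfbp5 and Gdnf) and 1 rose (Sox9), and in late cells 2 fell (Bmp7 and Gdnf) and 0 rose (edgeR). Of all genes tested, edgeR called 0.833% lower and 0.695% higher in early cells, and 0.779% and 0.641% in late cells. DESeq2 called 8 of the list lower and 4 higher in early cells, and 7 lower and 5 higher in late cells. Over all genes tested it called 25.2% and 28.1% in either direction. Bmp7, a bone morphogenetic protein of limb and hindgut, was at 79.7 and 48.1 CPM in fibroblasts, 1.07 and 1.09 CPM in early cells and 3.58 and 1.93 CPM in late cells (early log2 fold change -5.89 ± 0.51, edgeR adjusted p = 0.0235). Itga8, an integrin of kidney and limb, was at 55.5 and 106 CPM in fibroblasts, 0.311 and 0.614 CPM in early cells and 10.7 and 18.7 CPM in late cells (early -7.44 ± 0.66, edgeR adjusted p = 0.0241). Igfbp5, an insulin-like growth factor binding protein, was at 27.4 and 84.8 CPM in fibroblasts, 0.222 and 0.236 CPM in early cells and 87.9 and 183 CPM in late cells (early -7.91 ± 0.88, edgeR adjusted p = 0.0357). Its late libraries stood above those of fibroblasts. Gdnf, the growth factor that draws out the ureteric bud, fell in both comparisons (early log2 fold change -4.27 and late -5.17, edgeR adjusted p = 0.0408 and 0.0364). Sox9, a factor of cartilage, was at 98.2 and 116 CPM in early cells against 15.1 and 8.40 CPM in fibroblasts (edgeR adjusted p = 0.0456). The median of the list was -0.77 in early and -0.79 in late cells.

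The cofactors and regulators of Hox genes had 0 called members in either comparison with fibroblasts (edgeR). Of all genes tested, 1.53% (early) and 1.42% (late) were called. The 9 TALE cofactors, homeodomain proteins that bind DNA with Hox proteins, had 4 and 3 members at an unadjusted p under 0.05 in early and late cells, and DESeq2 called 4 and 3. Over all genes tested, 29.8% (early) and 32.5% (late) were at an unadjusted p under 0.05, and DESeq2 called 25.2% and 28.1%. Of the 22 chromatin and Cdx regulators, 20 were tested, 7 were at an unadjusted p under 0.05 in each comparison and 5 were called by DESeq2 in each. The medians were 0.65 and 0.67 for the cofactors and 0.36 and 0.47 for the regulators in early and late cells. In the comparison of late with early cells, 0 members of any of these lists passed with edgeR, as did 0.0% of all genes tested. DESeq2 called 3 of the position genes, 3 of the Hox-responsive genes and 1 regulator there, against 5.57% of all genes tested.

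The genes whose log2 CPM followed a member most closely over the 6 libraries were taken from 9547 well expressed genes, as a description without a test. For Hoxa13 they were Sfrp2, a secreted Wnt modulator (Pearson r = 0.997), Rrm2b (0.991), Stx3 (0.990) and Tmeff1 (0.989). Sfrp2 was at 170 and 129 CPM in fibroblasts, 1.29 and 0.520 CPM in early cells and 33.2 and 10.8 CPM in late cells. Rrm2b, a ribonucleotide reductase subunit, had a like order of libraries over a narrow range, from 22.5 to 32.7 CPM. For Hoxa10 they were Plrg1, Unc45a, Actg1 and Basp1 (r from 0.989 to 0.993), for Hoxd13 Abcc10, Parp6, Mpst and Zfp512b (0.978 to 0.992) and for Hoxd9 Bclaf3, Zfp646, Zfp444 and Tyro3 (0.955 to 0.988). With 6 libraries in 3 groups, such values rest on the differences between groups and libraries that all genes share. The r also does not measure the size of a change. Plrg1 ran only from 37.6 to 46.4 CPM and Abcc10 from 7.93 to 13.5 CPM, while Basp1 ran from 43.4 to 580 CPM.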

How the data were processed

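RNA of 6 libraries was made into cDNA with poly(A) selection, per the labels. The deposited values are whole-number read counts for each Ensembl gene, without normalization by the authors. The submitters' processing notes list Trimmomatic 0.36, STAR 2.5.2b, featureCounts, Subread 1.5.2 and the build GRCm38. Strandedness, gene model release and the handling of multimapping reads are not stated there. Symbols came from GENCODE M21 (GRCm38) and matched 49056 of 49315 identifiers. Members and gene lists were chosen with earlier results of these data known.

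The test was that of edgeR 4.0.16, run under R 4.3.3. Its default expression filter kept 16688 genes. After TMM scaling a robust quasi-likelihood model of 3 group means was fitted over all 6 libraries without a block (3 residual degrees of freedom). Contrasts were adjusted by Benjamini-Hochberg over all genes tested and called at an adjusted p under 0.05. Standard errors were derived from F statistics. The pipeline was tested on simulated data. Alternatives were DESeq2 1.42.0, relative log expression size factors, no filter, a replicate block, only the 2 groups compared and each library left out. Named genes were the 10 members, list members that passed (at most 4 a list and comparison), any gene of or beside the 2 clusters, any marker and the 4 genes most like each of 4 members. Levels per length use the union of annotated exons. Intervals and floors cover counting error only. Mouse promoter windows came from RefSeq, which held all 10 members. Of HoxA, the sums, lists and figures cover Hoxa2 to Hoxa13, and 1 item is not reported here.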

Additional observations from a re-analysis of the deposited data

How the results depend on the processing

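Of 297 values of single members under an alternative, 251 kept their direction and their side of the threshold, 31 passed the threshold where the reported fit did not, 5 no longer passed and 10 turned direction. Beside the reversals given in the report, Hoxa9 in late over early cells turned to -0.063 with a replicate block and to -0.08 without early replicate 2, and Hoxd10 to -0.87 with a replicate block. In that comparison the reported values were 0.12 for Hoxa9 and 0.18 for Hoxd10. With 1 library left out, late over early values ran from -1.41 to 0.83 for Hoxa9, -0.30 to 1.53 for Hoxa10, -0.28 to 1.86 for Hoxa11, -0.34 to 1.55 for Hoxd9, -2.13 to 1.02 for Hoxd10 and -0.038 to 2.18 for Hoxd11. The lowest of each was without late replicate 1. Hoxd8 in late cells over fibroblasts ran from -0.22 (without fibroblast replicate 2) to 0.52. The causes were not tested.

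Of the members, 1 was called in early cells over fibroblasts, 5 with DESeq2, 5 without a filter, 4 with only the 2 groups compared, 0 with the replicate block, and 0 to 4 with a library left out. In late cells over fibroblasts the number was 0, and 6 with DESeq2, 5 without a filter and 0 to 3 with a library left out. In late over early cells it was 0, and 1 with DESeq2 or without a filter. Over all genes 255, 237 and 0 were called in these comparisons, 4201, 4683 and 930 with DESeq2, and 2337, 2495 and 276 without a filter. Only the 2 groups compared gave 964 and 1015 in early and late cells over fibroblasts. With a library left out the counts ran from 0 to 944, from 0 to 1125 and from 0 to 401.

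Replicate numbers are not said to mark shared animals or cultures. Deviations from the group means of same-numbered libraries correlated at 0.12 for early and fibroblast, 0.24 for late and fibroblast and 0.09 for late and early, so the numbers were not taken as pairs. With the replicate block 26, 9 and 0 genes were called, and Hoxa13 in early cells had an adjusted p of 0.0659 (edgeR). Per kilobase of exon, posterior genes held 98.1% of HoxD in early cells against 97.3% by counts, and no other share moved by more than the spread between libraries. Low counts limit the HoxD members most, since Hoxd13 and Hoxd11 had 1 and 8 counts over both fibroblast libraries.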
